A study of Mus musculus with 10 samples.

Results

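The genes described here are Col1a1, Col1a2, Col3a1, Col5a1, Col5a2 and Col5a3, which encode the chains of the fibrillar collagens I, III and V. They were followed in the arthritic synovium of mice given maslinic acid or vehicle. They were taken from the probe sets whose platform annotation names one of them alone, and the probe set with the highest mean over the arrays stood for each gene. All 6 were measured, among 18128 genes, and 14 of 39993 probe sets belong to them. The maslinic acid group was 5 male DBA/1J mice given maslinic acid, a triterpene from olives, by mouth in corn oil at a daily dose of 200 mg per kg. The vehicle group was 5 such mice given corn oil. Mice of both groups had collagen antibody-induced arthritis: an antibody to type II collagen (1 mg) was injected on day 8, lipopolysaccharide (25 µg) followed on day 11, and the synovium was collected on day 12, at a labelled age of 8 weeks. The mice for the arrays were selected from larger groups by a criterion that is not given, and healthy mice are not analysed here. Each mouse gave 1 Affymetrix array of the synovium of the left hind leg, and it is the count of arrays that limits precision.

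Fibrillar collagens are made as procollagen chains that fold into a rope of 3 chains, each built of repeats that begin with glycine. Type I collagen, the main protein of bone, tendon and skin, combines a pair of chains from Col1a1 with a single chain from Col1a2. Type III collagen, which accompanies type I in distensible tissues and early repair, is made of Col3a1 chains only. Type V collagen sits inside type I fibrils and limits their width. Its usual form joins a pair of Col5a1 chains to a Col5a2 chain, and in a rarer form a Col5a3 chain takes the place of a Col5a1 chain. The supply of each chain therefore bears on which trimers can form, but arrays measure RNA and not protein, and the level of one probe set cannot be set against that of another. Chain balance is described below only as whether chains moved together between mice. In whole tissue, fewer cells that make collagen and less collagen RNA per cell cannot be told apart.

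RefSeq promoter sequences of build GRCm38.p6 were matched for 4 of the 6 genes, Col1a2, Col3a1, Col5a1 and Col5a3. They are shown because members of both of the patterns described below are among them. Each is a stretch of 200 bases on the strand of the gene that ends 50 bases before the start listed in the promoter table. The bases next to the listed start are left out because the RefSeq gene table begins Col5a1 and Col5a3 within them, 44 and 50 bases ahead of that start. Capitals mark matches on either strand to 4 textbook elements. These are CCAAT, which NF-Y binds, TATAAA, bound by the TATA-binding protein, GGGCGG, an Sp1 element, and CAGAC, a SMAD element.
Col1a2, chr6:4505368-4505567, plus strand: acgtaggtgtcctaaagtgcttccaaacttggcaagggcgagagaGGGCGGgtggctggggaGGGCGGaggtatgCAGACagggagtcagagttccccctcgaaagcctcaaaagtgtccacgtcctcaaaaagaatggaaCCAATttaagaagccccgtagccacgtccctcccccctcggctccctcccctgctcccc
Col3a1, chr1:45311288-45311487, plus strand: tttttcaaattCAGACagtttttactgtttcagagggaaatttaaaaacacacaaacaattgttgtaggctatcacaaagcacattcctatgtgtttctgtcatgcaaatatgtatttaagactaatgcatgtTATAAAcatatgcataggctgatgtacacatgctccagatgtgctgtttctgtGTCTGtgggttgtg
Col5a1, chr2:27886175-27886374, plus strand: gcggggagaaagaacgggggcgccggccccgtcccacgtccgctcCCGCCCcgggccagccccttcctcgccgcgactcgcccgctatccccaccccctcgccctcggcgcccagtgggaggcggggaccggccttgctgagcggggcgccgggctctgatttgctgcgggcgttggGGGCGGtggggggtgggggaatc
Col5a3, chr9:20815118-20815317, minus strand: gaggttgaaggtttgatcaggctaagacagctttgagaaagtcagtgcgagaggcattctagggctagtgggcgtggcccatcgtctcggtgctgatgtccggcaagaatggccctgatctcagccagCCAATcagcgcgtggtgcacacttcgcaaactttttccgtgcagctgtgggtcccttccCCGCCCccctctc

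The stretches differ in composition. Col3a1 is 35% G and C, against 59.5% in Col1a2, 58% in Col5a3 and 78% in Col5a1, and the median over all 32851 RefSeq windows of this length and position is 51.5%. A CCAAT match lies in the Col1a2 and Col5a3 windows, as in 28.4% of all windows. GGGCGG has 2 matches in each of Col1a2 and Col5a1, 1 in Col5a3 and 0 in Col3a1, and is held by 24.6% of all windows. TATAAA is found in Col3a1 alone of these 4 and in 9.14% of all windows. In Col1a2 and Col3a1 the bases nearest the start, where a TATA box usually sits, were not searched. The Col5a1 and Col5a3 windows reach up to, or almost up to, the start in the RefSeq gene table. CAGAC has 2 matches in Col3a1 and 1 in Col1a2, and is held by 35.8% of all windows. None of the matches overlap each other. These are matches of letters and not known binding sites.

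The deposited value is a score whose scale is unknown. It resembles a log2 intensity in level, but it differs so little between arrays that a difference is not a log2 fold change. Values are therefore given as deviations from a gene's mean over the 10 arrays, in thousandths of a score, and effects as Hedges' g. It divides the maslinic acid mean minus the vehicle mean by the pooled SD of both groups, with a small-sample correction, and a linear rescaling leaves it unchanged. The ranges of the chosen probe sets of the 6 genes ran from 2.56 thousandths for Col1a2 to 29.9 for Col1a1, and each gene had 10 distinct values, so that rounding at the 6th decimal does not limit them. The arrays carry no detection call here. Vehicle replicates 3 and 5 stood apart from the rest, with array quality weights in limma, over genes, of 0.401 and 0.309, where the remaining arrays had 0.809 to 2.25, and each gene is also given without both.

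All 6 genes had higher means with maslinic acid, and 0 of 6 passed the test. In limma, with Benjamini-Hochberg adjustment over all genes, their adjusted p-values lay between 0.586 and 0.643, and 0 of all genes passed (0%). At an unadjusted p under 0.05 there were also 0 of the 6, where 8.56% of all genes reached it, 4.22% higher and 4.34% lower with maslinic acid. The groups overlapped for all 6, as they did for all but 1.38% of genes. A higher mean with maslinic acid was found for 47.9% of all genes, and for 60.2% of those with 10 distinct values. The median g of the 6 was 0.99, against 0.23 over genes with 10 distinct values and 0 over all genes.

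Among the type I chains, Col1a1 deviated by 4.91, -4.67, 7.89, 5.54 and 8.55 thousandths in maslinic acid replicates 1 to 5, against -5.98, -1.21, 8.02, -1.69 and -21.4 in vehicle replicates 1 to 5. Maslinic acid replicate 2 was the low array of its group, vehicle replicate 3 was as high as the highest maslinic acid arrays, and vehicle replicate 5 was far below all others. The mean was 4.44 ± 5.32 with maslinic acid and -4.44 ± 10.7 with vehicle (SD, n = 5 each), a g of 0.95 with a 95% interval of -0.29 to 2.13 (limma adjusted p = 0.638). Without vehicle replicate 3 the g of Col1a1 was 1.45, without vehicle replicate 5 it was 0.74, and without both it was 1.40. Col1a2, the partner chain, deviated by 0.302, -0.189, 0.658, 0.525 and 0.398 in maslinic acid mice, against -0.180, 0.169, 0.170, 0.0458 and -1.90 in vehicle mice. Vehicle replicate 5 again lay far below the rest, while the other 4 vehicle mice spanned a narrow band just below most maslinic acid mice. The g of Col1a2 was 0.92 (-0.31 to 2.10, limma adjusted p = 0.643), and 1.00 without vehicle replicates 3 and 5.

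Col3a1, the only chain of type III collagen, deviated by 1.90, -2.44, 5.56, 2.60 and 2.49 thousandths in maslinic acid mice, against 0.234, 0.754, -2.91, -0.181 and -8.01 in vehicle mice. Here 4 of 5 maslinic acid mice lay above every vehicle mouse, and replicate 2 lay among the low vehicle mice. The g of Col3a1 was 1.11 (-0.15 to 2.33, limma adjusted p = 0.602), and 0.65 without vehicle replicates 3 and 5.

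Of the type V chains, Col5a1 deviated by 1.55, -1.82, 1.92, 4.81 and 3.95 thousandths in maslinic acid mice, against -0.680, 0.253, -3.26, 1.09 and -7.80 in vehicle mice. Its g was the highest of the 6 at 1.20 (-0.09 to 2.43, limma adjusted p = 0.586), and 0.75 without vehicle replicates 3 and 5. As with Col3a1, only maslinic acid replicate 2 fell below the highest vehicle mouse. Col5a2, the usual partner of Col5a1, deviated by -0.218, -0.341, 2.20, 0.988 and 0.974 in maslinic acid mice, against -1.40, 0.346, 1.23, -0.593 and -3.19 in vehicle mice, with a g of 0.92 (-0.30 to 2.10, limma adjusted p = 0.642), and 1.12 without vehicle replicates 3 and 5. Its groups overlapped more: only maslinic acid replicate 3 exceeded vehicle replicate 3, which was the highest vehicle mouse. After quantile normalization the g of Col5a2 was 0.04, and without vehicle replicate 5 alone it was 0.67. Col5a3, the chain of the rarer trimer, deviated by 0.438, -0.912, 4.39, 2.27 and 0.863 in maslinic acid mice, against 1.34, 0.131, -3.30, 0.155 and -5.37 in vehicle mice. Its g of 1.04 (-0.21 to 2.24, limma adjusted p = 0.612) was 0.45 without vehicle replicates 3 and 5.

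**Figure D1:**
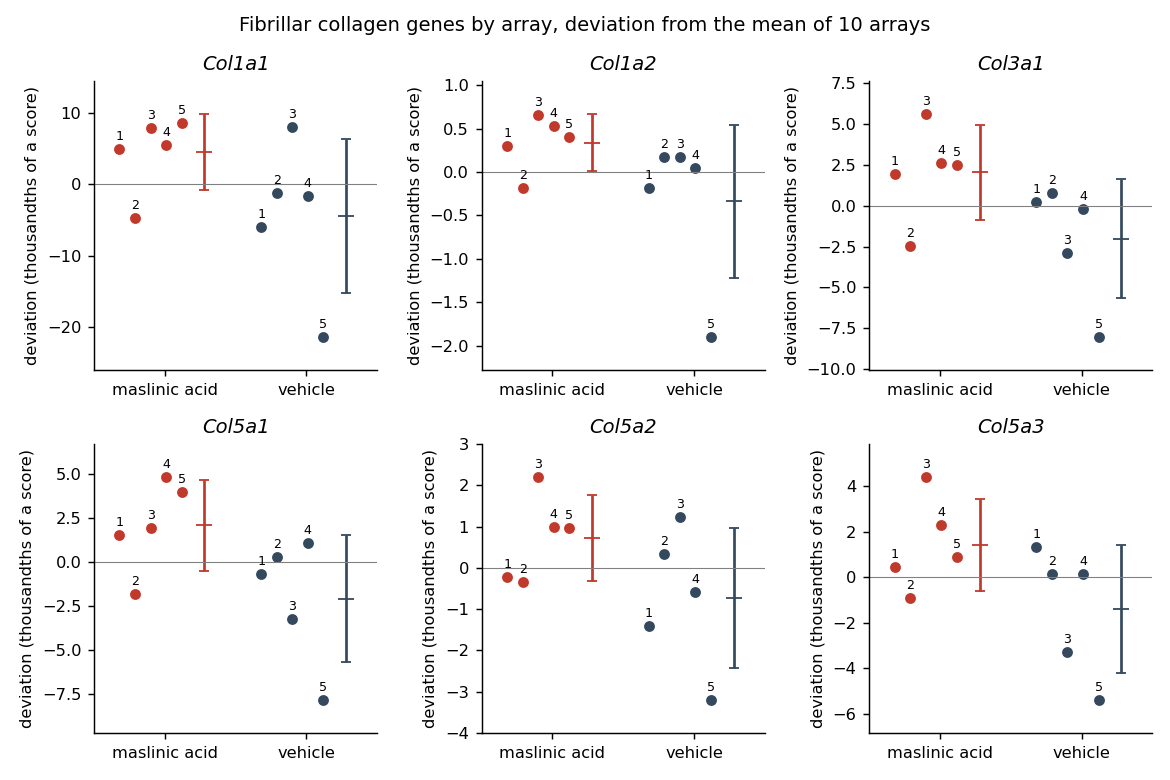
Deviation of each collagen gene from its mean over 10 arrays, in thousandths of a score, by mouse (numbered points, maslinic acid left and vehicle right), with mean and SD of 5 arrays beside them. Vehicle replicate 5 is the lowest vehicle array in all 6 panels and maslinic acid replicate 2 the lowest maslinic acid array in all 6.

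The mouse-to-mouse order was largely shared. Maslinic acid replicate 2 was the lowest of its group in 6 of 6 genes and vehicle replicate 5 the lowest of its group in 6 of 6. Maslinic acid replicate 3 was the highest of its group in 4 genes. With each gene scaled to an SD of 1 over the 10 arrays, the mean of the 6 ran from -0.411 to 1.13 over maslinic acid mice and from -2.21 to 0.108 over vehicle mice, and without vehicle replicate 5 the lowest vehicle mean was -0.241. Kendall's coefficient of concordance of the 6 genes over 10 arrays was 0.764, where 1 would be the same order of arrays in every gene. The SD was larger in the vehicle group for all 6, as for 81.7% of genes with 10 distinct values.

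All 14 probe sets of these genes, the chosen ones included, had higher means with maslinic acid, where 43.7% of all probe sets had a higher mean with maslinic acid. Among genes with 10 distinct values the share was 60.2%. In limma 0 of the 14 passed over all probe sets (0% of them did), and 0 reached an unadjusted p under 0.05 (9.04% of them did). The probe sets of a gene measure the same RNA extract, so they are not further replicates. The 2 probe sets of Col1a1 had g of 0.95 and 0.93, although the range over arrays was 29.9 thousandths in the first and 92.5 in the second. The 3 of Col1a2 had g of 0.81 to 0.92, the 2 of Col3a1 1.02 and 1.11, the 3 of Col5a1 1.09 to 1.20, and the 2 of Col5a2 0.76 and 0.92. Over the 10 arrays the further probe sets of these 5 genes correlated with the chosen one at r of 0.94 to 0.97, except one of Col1a2 at 0.78. The second probe set of Col5a3 held 3 distinct values within 0.004 thousandths and had a g of 0.23 (-0.90 to 1.35). Its values are at the limit of rounding and its r with the chosen probe set was -0.46, so its direction carries no weight.

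**Figure D2:**
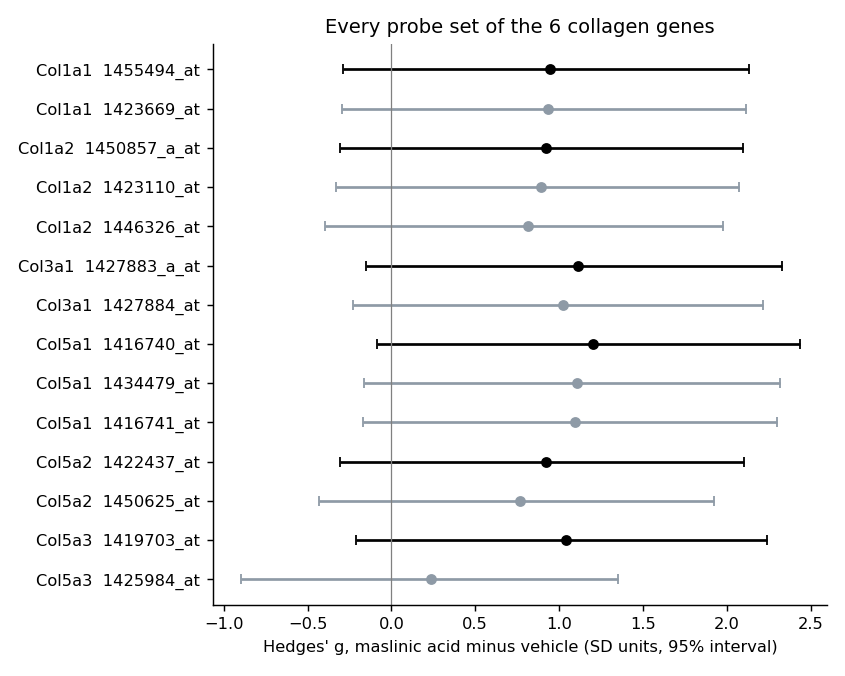
Hedges' g, maslinic acid minus vehicle, with 95% interval for each of the 14 probe sets of the 6 genes (black: the probe set chosen for the gene; grey: the others; 5 arrays per group). All points lie above 0 and all intervals include 0.

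Whether chains of the same type and of different types moved in step was asked with 5 pairs. For each mouse the scaled value of one chain was subtracted from that of the other, so that 0 means that both chains stood equally far from their own mean. Col1a1 minus Col1a2 was 0.112, -0.242, -0.0600, -0.130 and 0.371 in maslinic acid mice, against -0.396, -0.365, 0.630, -0.245 and 0.324 in vehicle mice. The type I chains thus stayed within 0.63 SD of each other in every mouse, and the group means were 0.010 ± 0.239 and -0.010 ± 0.461 (SD, n = 5 each; exact permutation p = 0.921, two-sided; g = 0.05, 95% interval -1.07 to 1.17). That interval holds shifts of about 1 SD of this difference in either direction, so that the test does not show an unchanged balance.

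Between type I and type III, Col1a1 minus Col3a1 was 0.0243, 0.146, -0.631, -0.0949 and 0.258 in maslinic acid mice, against -0.708, -0.331, 1.64, -0.134 and -0.171 in vehicle mice. Vehicle replicate 3 stood out, with Col1a1 high and Col3a1 low. The same mouse was highest for Col1a1 minus Col5a1 at 1.75, where the other 9 mice lay between -0.713 and 0.330, and lowest for Col5a1 minus Col5a2 at -1.69, where the others lay between -0.917 and 0.731. For Col5a1 minus Col5a3 it was at 0.315, within the range of the others. Differences between groups in these 4 pairs had g of -0.22 to 0.20 and exact permutation p-values from 0.738 to 0.897, and all 5 pairs had an adjusted p of 0.921. Without vehicle replicate 3, Col1a1 minus Col3a1 and Col1a1 minus Col5a1 turned from -0.119 and -0.174 to 0.284 and 0.237 in the difference of group means, with adjusted exact permutation p-values of 0.503. Col5a1 minus Col5a2 turned as well, to -0.196 from 0.191 (adjusted exact permutation p = 0.730).

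**Figure D3:**
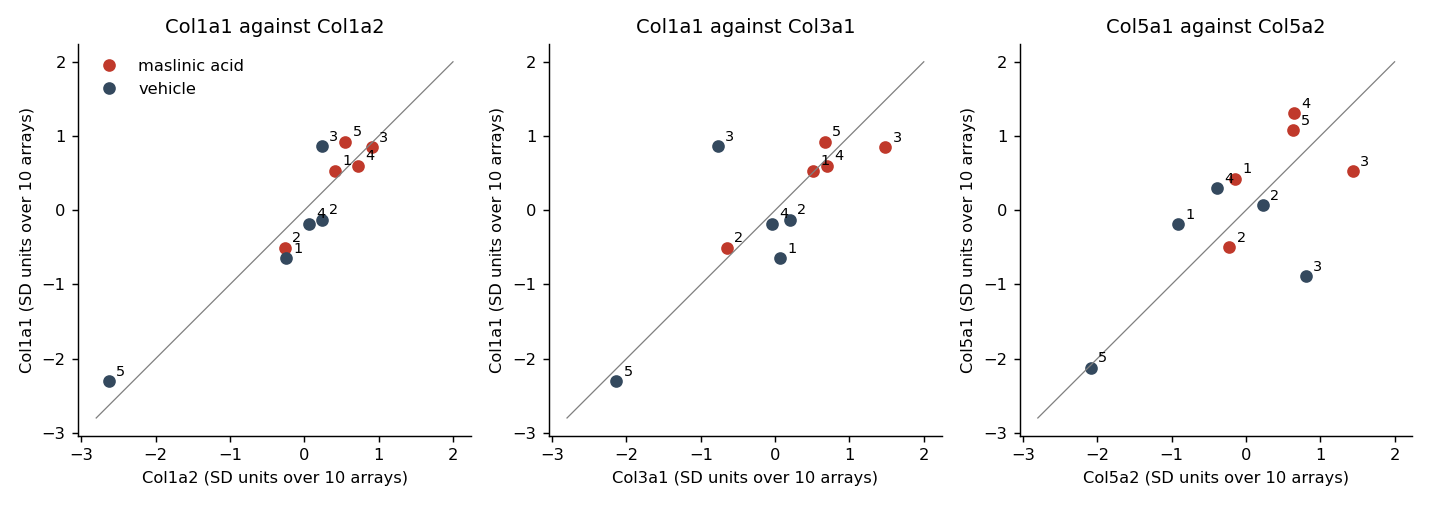
Scaled values of 2 chains in each mouse (SD units over the 10 arrays, numbered by replicate, red maslinic acid, dark blue vehicle), with the line of equal values. The type I chains lie along the line, and vehicle replicate 3 leaves it for Col1a1 against Col3a1 and for Col5a1 against Col5a2.

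In vehicle replicate 3 the 6 genes fell into 2 triplets, described after their values were seen. All 7 probe sets of Col1a1, Col1a2 and Col5a2 were above their own mean there, by 0.235 to 1.34 SD, and the 6 probe sets of Col3a1, Col5a1 and Col5a3 with 10 distinct values were below, by -1.20 to -0.604 SD. In vehicle replicate 5 all 13 of these probe sets were below their mean, by -2.63 to -1.67 SD. Col3a1 and Col5a2 are neighbours on chromosome 1 with 0 annotated genes between them in the RefSeq table, yet they fell into different triplets. Vehicle replicate 3 was also the highest of all arrays in the scaled mean of neutrophil markers (1.32), of platelet and megakaryocyte markers (1.61) and, together with 1 maslinic acid array at 1.43, high in erythroid markers (1.36). Its means of mural cell, endothelial, osteoclast and adipocyte markers were low, at -0.931, -0.952, -0.941 and -0.731. Its mean of fibroblast markers, -0.780, was the lowest of all arrays. Osteoblast and osteocyte markers were at -0.492, tendon cell markers at -0.088 and skeletal muscle markers at 0.235. Of the collagen pathway lists described below, other fibrillar collagens were at 1.01 in this array, the highest vehicle value. The remaining lists lay between -1.45 for crosslinking, the lowest of all arrays, and -0.231 for collagen receptors. The part of these cell types and lists in the split was not tested.

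Across mice the chains were positively correlated in 15 of 15 pairs, with Pearson's r from 0.62 to 0.96 and a median of 0.85. After adjustment over the 15 pairs, 13 had a permutation p under 0.05 for r and 9 for Spearman's rho. The type I chains Col1a1 and Col1a2 had r = 0.94 (permutation p = 0.00022, adjusted p = 0.001; rho = 0.85, adjusted p = 0.007). Col1a1 and Col5a2 reached r = 0.93 and rho = 0.89, and Col3a1 and Col5a3 r = 0.96 and rho = 0.90. The type V partners Col5a1 and Col5a2 were at r = 0.68 (adjusted permutation p = 0.039) and rho = 0.52 (adjusted permutation p = 0.155). The lowest pair was Col1a1 and Col5a3 at r = 0.62 (adjusted permutation p = 0.067).

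Much of this rested on vehicle replicate 5. Without the 2 arrays farthest from the median of the first gene, which always included vehicle replicate 5, r ran from -0.26 to 0.93 with a median of 0.67. Without vehicle replicate 5 alone, 6 of 15 pairs had an adjusted exact permutation p under 0.05: Col1a1 with Col1a2 (r = 0.85) and Col5a2 (0.84), Col1a2 with Col3a1 (0.80) and Col5a2 (0.84), and Col3a1 with Col5a1 (0.78) and Col5a3 (0.92). Col1a1 with Col5a3 was then at 0.14 and Col5a1 with Col5a2 at 0.29. Vehicle replicate 3 worked the other way. Without it all 15 pairs passed, at r of 0.83 to 0.96. The triplets were read from that array, so higher correlations between them in its absence follow from how they were chosen. Without vehicle replicates 3 and 5, 10 pairs passed. With all arrays but the group means removed, 9 did.

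**Figure D4:**
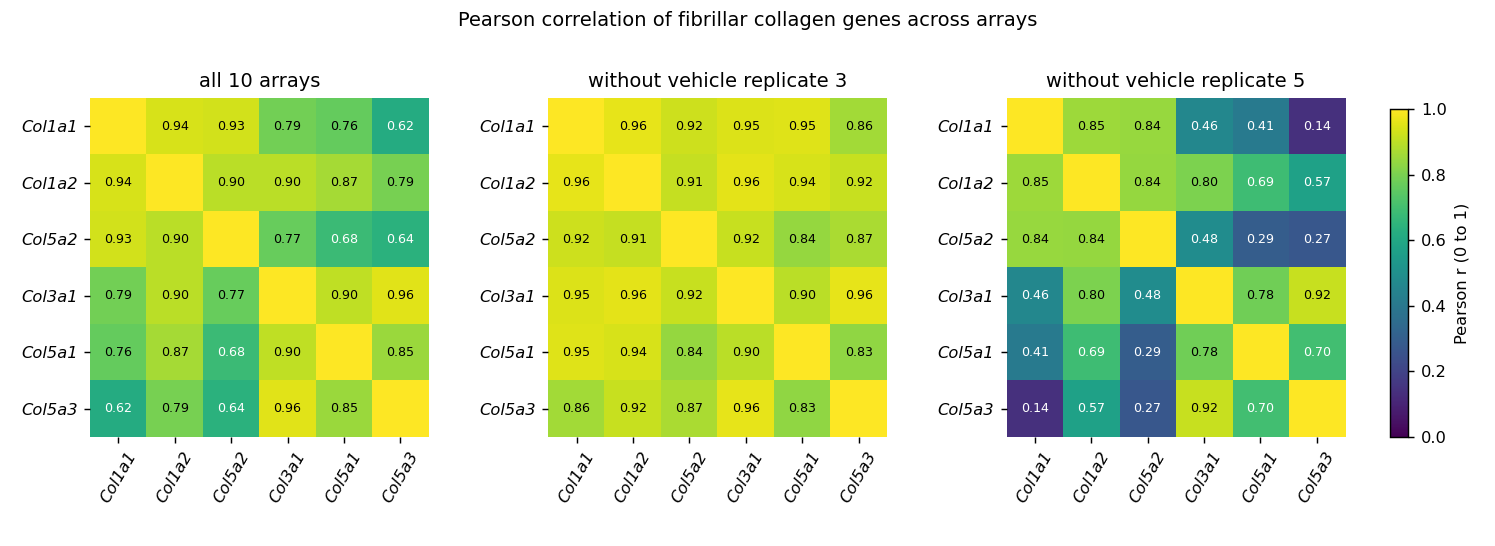
Pearson correlation of the 6 genes across arrays (colour from 0 to 1), for all 10 arrays and for the arrays that remain when vehicle replicate 3 or vehicle replicate 5 is left out. Values run from 0.62 to 0.96 over all arrays, from 0.83 to 0.96 without vehicle replicate 3 and from 0.14 to 0.92 without vehicle replicate 5.

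Many genes correlated with the collagens as well as the collagens did with each other. Among 6742 other genes with 10 distinct values, the other members included, the median r with a member was 0.14 to 0.24. By r with Col1a1, Col1a2 ranked 8 and Col5a2 ranked 14, while Col3a1 ranked 217, Col5a1 286 and Col5a3 1038. By r with Col5a1, Col3a1 ranked 96 and Col5a2 1444. The values of an array share the same RNA extract and the same array, so these are descriptions without a test.

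The genes most like all 6 by mean r over the 10 arrays were Tanc1, a scaffold protein (0.90), Fn1, fibronectin, on which collagen fibrils assemble (0.89), and Agrn, the basement membrane proteoglycan agrin (0.89). Cd109, a TGF-beta co-receptor, and Sparc, a collagen-binding matrix protein, were each at 0.88, as were Sf3b2, Grsf1, Ankrd11, Srcap and Phlpp1. The genes most opposed were Gtf2f2, a general transcription factor subunit (-0.89), Cops6, a signalosome subunit (-0.89), Tex30, Mtrex and Mrpl13. Without vehicle replicates 3 and 5 the mean r was 0.75 to 0.86 for the first 10 and -0.82 to -0.74 for the last 5.

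The nearest genes differed from chain to chain. Col1a1 was most like Cercam, a relative of the collagen galactosyltransferases (r = 0.99), Ptprs (0.96) and Atf7ip (0.95), and Col1a2 like Srcap (0.97), Ctsa (0.97) and Csf1r, the receptor of the macrophage growth factor (0.96). Col3a1 was most like Ano6, a phospholipid scramblase (0.99), Fat1, an atypical cadherin (0.99), and Msn, moesin (0.97). Col5a1 was closest to Nfatc1, the master regulator of osteoclasts (0.98), Creb3l1, a transcription factor of bone matrix secretion (0.98), and Mmp9, gelatinase B (0.98). Col5a2 was closest to Lrch1 (0.96), Clec11a, an osteogenic growth factor (0.95), and Lats2 (0.95), and Col5a3 to Frmd6 (0.98), Piezo1, a mechanically gated channel (0.97), and Mmp2, gelatinase A (0.97). Of these 18 genes Csf1r had the lowest r without vehicle replicates 3 and 5, 0.74 with Col1a2.

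Genes that serve these collagens were set beside them in 8 lists, and 0 genes of any list passed in limma over all genes. Of other fibrillar collagens, 4 of 5 had higher means with maslinic acid (median g 0.51). Col2a1, the cartilage collagen, was at 0.61 (95% interval -0.56 to 1.75) and Col11a2 at 0.60 (-0.57 to 1.74). Of procollagen folding, hydroxylation and export genes, 20 of 23 had higher means and 2 lower (median g 0.69), and 1 reached an unadjusted p under 0.05, where 8.56% of all genes did. This was Plod2, the lysyl hydroxylase of telopeptides, at 1.81 (0.36 to 3.20, limma adjusted p = 0.525), followed by P3h3, a prolyl hydroxylase family member, at 1.20 (-0.09 to 2.43). Propeptide removal genes were higher in 5 of 9 and lower in 3 (median g 0.59), with the C-proteinase Bmp1 at 1.34 (0.02 to 2.60, limma adjusted p = 0.575) and its enhancer Pcolce at 1.14 (-0.13 to 2.36).

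Fibril assembly partners had higher means in 17 of 17 (median g 0.83), with Thbs2, thrombospondin 2, at 1.47 (0.11 to 2.76) and Sparc at 1.35 (0.03 to 2.61). Crosslinking genes were higher in 5 of 5 measured (0.90), with the lysyl oxidase Lox at 1.54 (0.16 to 2.85, limma adjusted p = 0.540) and Loxl4 at 1.20 (-0.09 to 2.43). Lox deviated by 0.0283 to 10.3 thousandths over maslinic acid mice and by -10.9 to 1.39 over vehicle mice, so that its groups overlapped narrowly. Cleavage and uptake genes were higher in 9 of 10 (0.94), with Mmp2 at 1.40 (0.06 to 2.67) and Mfge8, which takes part in collagen uptake, at 1.26 (-0.05 to 2.50). Synthesis and breakdown genes thus had medians of the same direction. At an unadjusted p under 0.05 these 3 lists had 2 of 17, 1 of 5 and 1 of 10 genes, all higher, where 4.22% of all genes were higher at that p. A higher mean alone was found for 60.2% of genes with 10 distinct values.

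Collagen receptors were mixed, with 5 of 9 higher and 4 lower (median g 0.44), and with 2 in each direction at an unadjusted p under 0.05, where 4.22% of all genes were higher and 4.34% lower at that p. Itga10, a collagen-binding integrin chain of cartilage, was at 1.80 (0.35 to 3.18). Ddr1, a collagen-activated kinase, was at 1.84 (0.38 to 3.24), but its range over arrays was 0.017 thousandths, close to the rounding. On the lower side stood Gp6, the collagen receptor of platelets, at -1.71 (-3.06 to -0.29), and Lair1, an inhibitory collagen receptor of leukocytes, at -1.66 (-3.00 to -0.25). Platelet and megakaryocyte markers had lower means in 6 of 6 (median g -1.12), with array means of -1.31 to 0.140 in maslinic acid mice and -0.352 to 1.61 in vehicle mice, and their part in the Gp6 value was not tested. Regulators of type I collagen transcription were higher in 19 of 23 (0.75), with 3 higher and 1 lower at an unadjusted p under 0.05 (4.22% and 4.34% of all genes). Smad4 had a g of 3.22 (1.28 to 5.10, limma adjusted p = 0.461) with 9 distinct values and groups that did not overlap (as for 1.38% of all genes). Its range over arrays was only 0.039 thousandths, so that it too lay close to the rounding. The TGF-beta receptor Tgfbr2 had a g of 1.51 (0.14 to 2.81, limma adjusted p = 0.545). The others at that p were Larp6, which binds type I collagen mRNAs, at 1.28 (-0.03 to 2.52) and Ybx1, a Y-box protein, at -1.50. Ybx1 had 6 distinct values within 0.006 thousandths. Gp6, Lair1, Larp6 and Ybx1 are named after their values were seen, so as to complete these counts.

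**Figure D5:**
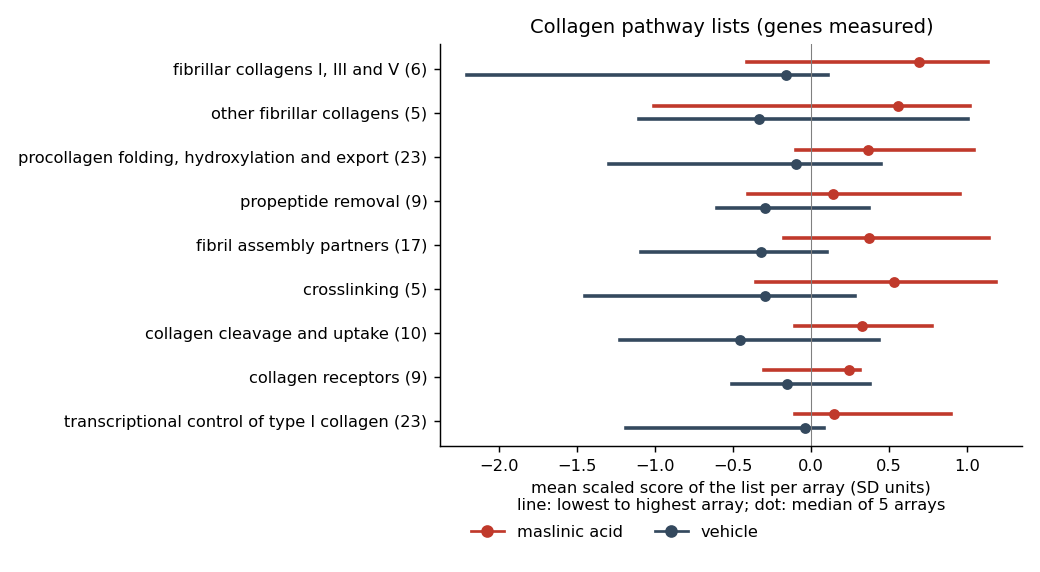
Mean scaled score of each list per array (SD units; line from the lowest to the highest array, dot at the median of 5; red maslinic acid above, dark blue vehicle below). Maslinic acid medians lie above vehicle medians in every list, and the ranges overlap in every list.

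Markers of cells that could contribute collagen RNA, and of other cells in the dissected tissue, were followed as well, and 0 of their genes passed in limma over all genes. Osteoblast and osteocyte markers had higher means with maslinic acid in 7 of 7 measured (median g 0.98), with array means of -0.108 to 0.918 in maslinic acid mice and -1.15 to 0.037 in vehicle mice. Fibroblast markers were higher in 10 of 11 (0.56), with array means of -0.413 to 1.40 in maslinic acid mice and -0.780 to 0.354 in vehicle mice. Tendon cell markers were higher in 5 of 6 (0.62), at -0.869 to 1.43 in maslinic acid mice and -0.803 to 0.543 in vehicle mice. Chondrocyte markers were higher in 11 of 11 (0.45), and osteoclast markers in 7 of 8 (1.06). Adipocyte markers were higher in 6 of 6 (0.87), mural cell in 7 of 8 (0.70), endothelial in 6 of 8 (0.19) and macrophage markers in 6 of 8 (0.29). Erythroid markers were higher in 3 of 3 (0.18), keratinocyte in 4 of 8 (0.19) and Schwann cell markers in 1 of 4 (-0.24). Over genes with 10 distinct values 60.2% had a higher mean (median g 0.23), and over all genes 47.9% did. Skeletal muscle markers, which should be scarce in clean synovium, were higher in 12 of 12 (0.40), with array means of -0.780 to 0.888 in maslinic acid mice and -1.80 to 0.678 in vehicle mice. Vehicle replicate 5, lowest in all 6 collagens, was also the lowest vehicle array in osteoblast (-1.15), chondrocyte (-1.21), osteoclast (-1.14) and tendon (-0.803) markers. It was the lowest vehicle array in endothelial (-1.19), macrophage (-0.566), Schwann cell (-0.717), erythroid (-1.42) and neutrophil (-0.168) markers too. It was not the lowest in fibroblast (-0.363), muscle (0.027), mural cell (-0.642), adipocyte (-0.525), keratinocyte (-0.0995) or platelet and megakaryocyte (-0.223) markers. Neutrophil markers had lower means in 10 of 10, of which S100a8 and S100a9 differed only by a step of rounding, with array means of -0.645 to -0.217 in maslinic acid mice and -0.168 to 1.32 in vehicle mice. The part of these cell types in the collagen values was not tested beyond 2 covariates. With the muscle score as a covariate the direction was the same for all 6 collagens. With the neutrophil score, g ran from 0.98 for Col5a3 to 3.57 for Col1a1 in units of the residual SD. The limma adjusted p-values were 0.628 to 0.824, and 0 of 6 passed. The group ranges of that score do not overlap, so that score and group can hardly be told apart. This g leaves out the wider error that follows and is not comparable with the g above.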

How the data were processed

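Expression was measured on 10 Affymetrix mouse genome arrays, 5 per group, from 100 ng of total RNA each. Groups and replicate numbers come from the sample titles. The deposited values are named a score because their scale is unknown. R 3.2.1 was used, per the submitters' processing notes, while how the scores were background-corrected, normalized and summarised is not given in the sources used here. Of 39993 probe sets, 34202 named 1 gene, 931 several and 4860 none in the platform annotation. Members, lists and tests were chosen with earlier results of these data known.

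limma 3.58.1 (R 4.3.3) was fitted to the scores of 18128 genes, and separately of all probe sets, two-sided, with Benjamini-Hochberg adjustment, a threshold of 0.05 and no filter. Intervals of g came from the noncentral t distribution. Chain differences used all 252 assignments of arrays, correlations 100000 permutations, or all orders where arrays were left out. The fit was tested on simulated data. Named genes were the 6 members, the 2 of lowest p per pathway list, the 10 highest and 5 lowest by mean r, and the 3 nearest each member. Protein sequences were not used here, so no protein comparison was made. Python 3.11.15, scipy 1.17.1 and matplotlib 3.10.9 made tables and figures.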

Additional observations from a re-analysis of the deposited data

Results flagged for a closer look

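In groups of 5, the gap between the lowest or highest array and its neighbour, divided by the range of the group, exceeded Dixon's 95% critical value of 0.71 in 4 of 22 groups looked at, where chance gives about 1 in 20. In Col1a1, maslinic acid replicate 2 lay apart on the low side (0.725), and in Col1a2 vehicle replicate 5 did (0.831). Vehicle replicate 3 lay apart on the high side in Col1a1 minus Col3a1 (0.755) and in Col1a1 minus Col5a1 (0.867). The 22 groups share genes and arrays and are not independent.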

How the results depend on the processing

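In 24 alternatives, 0 of the measured members passed in limma or the exact Wilcoxon test, and every g stayed positive. Without single arrays, g ran from 0.67 to 1.57 over the 6 genes, and the median g over the members stayed within 1 SD of 0.99 except with the neutrophil covariate (2.06). The groups do not overlap in that covariate, so its g is not comparable with the others. At an unadjusted p under 0.05, 3 members were found with that covariate and at most 2 elsewhere. After quantile normalization Col1a2 held 1 value on all arrays and gave no result, and 6 of the remaining 10 pairs correlated at an adjusted p under 0.05. Without single arrays, 6 to 15 pairs did, with a median r from 0.69 (without vehicle replicate 5) to 0.92. Chain differences never passed but turned sign. After quantile normalization Col5a1 minus Col5a2 was 1.09, against 0.191 in the main test (adjusted exact permutation p = 0.635). Without vehicle replicates 3 and 5, Col1a1 minus Col3a1 was 0.551, Col1a1 minus Col5a1 0.455 and Col5a1 minus Col5a2 -0.290. Without single arrays, Col1a1 minus Col1a2 ran from -0.174 to 0.227, Col1a1 minus Col3a1 from -0.270 to 0.284, Col1a1 minus Col5a1 from -0.302 to 0.237, Col5a1 minus Col5a2 from -0.196 to 0.362 and Col5a1 minus Col5a3 from -0.0623 to 0.235. The cause was not tested. With the replicate number as a block, 0 members passed, the median g was 0.81, and the sign-flip test of 5 pairs (smallest p 0.0625) gave an adjusted p of 1 for each chain difference. Same-numbered arrays correlated at -0.38 to 0.32 in deviations from group means and 2 of 5 correlated best with their own number. So few values cannot decide whether same-numbered mice were paired, and the labels give only the number. No alternative separates tissue composition from expression, and 5 arrays per group limit what can be called.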
